A study of Mus musculus with 9 samples.

Results

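The genes described here make ribosomes. They are 39 genes of the nucleolus, the part of the nucleus where ribosomal RNA is transcribed and assembled. They were taken as a fixed list of nucleolar, ribosomal RNA processing and RNA polymerase I genes together with Myc. The list was chosen with earlier results of these data known. All 39 were found in the table of 24421 genes and all 39 passed the filter on low counts, as did 12575 genes in all. RNA polymerase I transcribes a long precursor that is cut, modified at sites chosen by small nucleolar RNAs (snoRNAs) and folded with ribosomal proteins into a small and a large subunit. The proteins that do this are made in proportion to growth in most cells, and MYC, a transcription factor whose gene is amplified or overexpressed in many breast cancers, is known to activate many of their genes.

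RNA was sequenced from 4T1 cells. This mammary carcinoma line of the mouse forms lung metastases in BALB/c mice and lacks the estrogen, progesterone and HER2 receptors. There were 3 conditions with 3 libraries each, taken after 5 days of culture. Cells grew as 3D spheroids plated on soft agar with 75 µM palmitate added, as 2D monolayers with 75 µM palmitate added, or as 3D spheroids without added palmitate. Palmitate was bound to albumin and came on top of the serum, and the cultures without it received the same albumin with ethanol. All libraries come from 1 cell line, and 2D culture without added palmitate was not analysed here. Nothing in the labels says that the 3 libraries of a condition came from separate experiments, so p-values measure the spread between these libraries, which may be technical. The study made both comparisons, of 3D with 2D and of 3D with and without palmitate, to examine how cells process lipids.

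Library totals ran from 6595514 counts, in 3D palmitate replicate 3, to 31177756. Even in the smallest library every gene of the list had at least 178 counts. Rn45s, the ribosomal RNA precursor gene, held 1.97, 1.77 and 2.77% of counts in 3D without palmitate, 3.14, 5.38 and 1.81% in 3D with palmitate and 3.49, 2.65 and 2.46% in 2D. Since the libraries were made from polyadenylated RNA, these shares cover only precursor RNA that passed that selection. The 3 libraries of 3D with palmitate differed along base composition. Across the 39 genes, the difference in log2 level had a Spearman correlation with transcript GC content of -0.79 for replicate 3 minus 1, -0.80 for 3 minus 2 and -0.66 for 2 minus 1, and across 12504 genes of -0.63, -0.46 and -0.53, all pairs sharing libraries. Calls for palmitate changed most when replicate 3 was left out, and are given with and without it. Epithelial markers were present in every library (all 6 measured, summed level 3312 to 4642 CPM, counts scaled to a common library size), and macrophage Adgre1 and T cell Cd3e were at 0 in every library.

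3D spheroids held less RNA of nearly the whole list than 2D monolayers. Of the 39 genes, 36 were lower in 3D with palmitate than in 2D with palmitate by edgeR's quasi-likelihood test (Benjamini-Hochberg adjusted p under 0.05), beside 33.9% of all genes tested. Higher calls were made for 2, Tsr1 and Polr1a, beside 34.5% of all genes, and Utp20 was not called in either direction. The median log2 fold change of the 39 genes was -0.76 (quartiles -0.97 and -0.56), against 0.01 for all genes tested. In 36 genes all 3 libraries of 3D with palmitate lay below all 3 of 2D, which held for 34.8% of all genes. The same 36 also had all 3 libraries of 3D without palmitate below 2D, a pattern that was not counted over all genes. Summed over the list, levels were 5956, 6114 and 6734 CPM in 3D with palmitate and 12566, 12249 and 12667 CPM in 2D. The 3D libraries without palmitate summed to 5815, 5840 and 5753 CPM. In RNA from whole cultures, fewer cells that express a gene and less of its RNA per cell cannot be told apart.

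**Figure D1:**
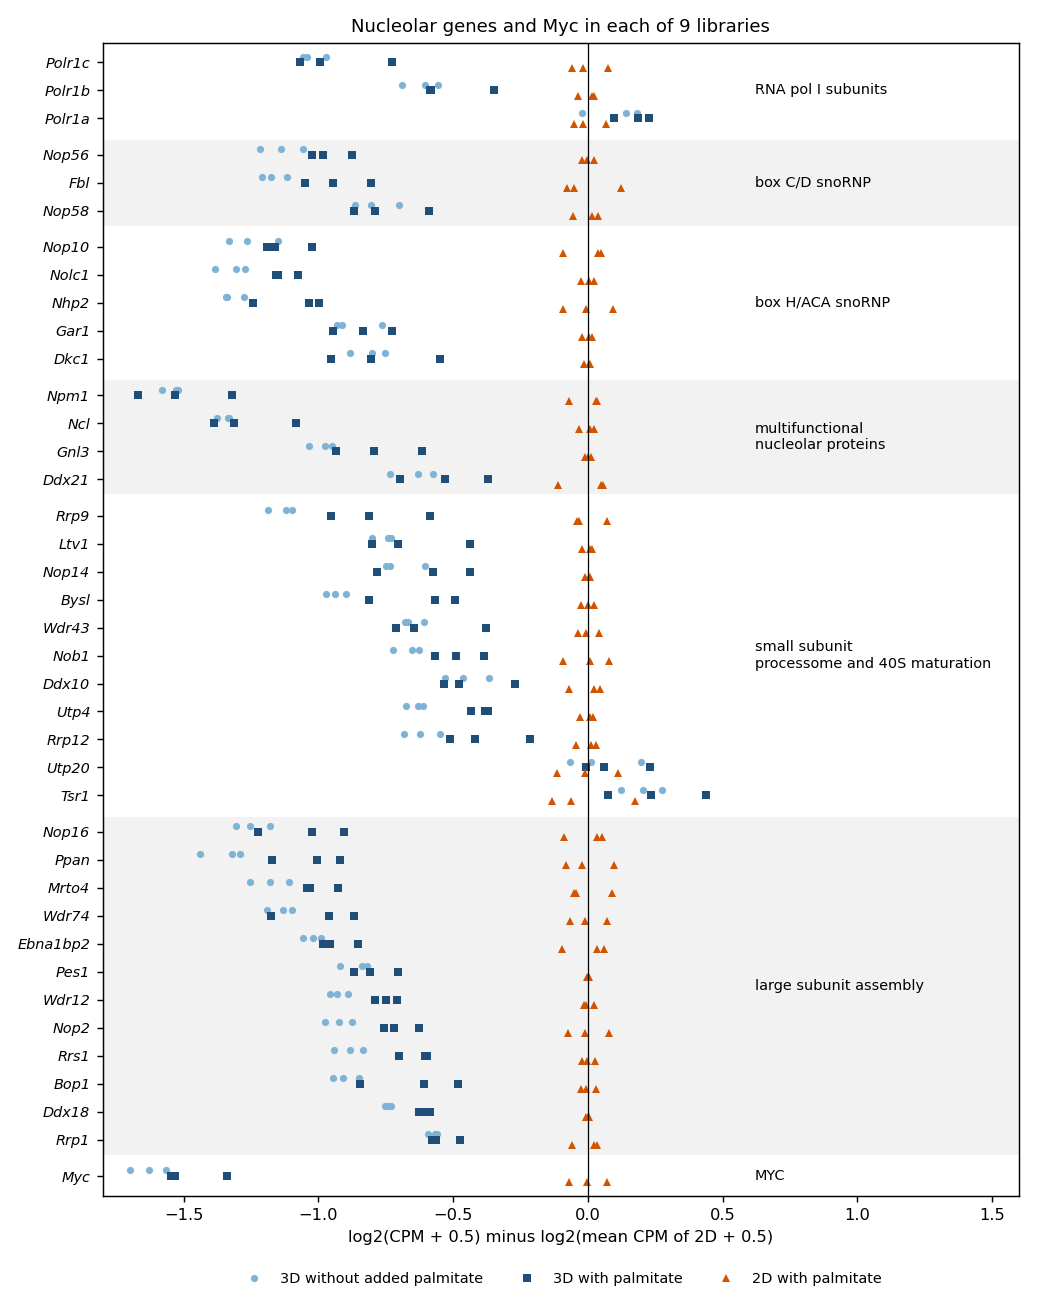
Each row is 1 gene and each point 1 library, placed by its log2(CPM + 0.5) minus the log2 of the mean 2D level plus 0.5 (horizontal axis), with rows grouped by role. In 36 rows all 6 points from 3D cultures lie left of the 3 points from 2D, and the exceptions are Polr1a, Utp20 and Tsr1. The share of all genes with this pattern was not counted.

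Myc (chr15:61985391-61990374, GRCm38) had one of the largest falls. Its level was 182, 157 and 159 CPM in 3D with palmitate, 155, 149 and 142 CPM in 3D without, and 459, 440 and 484 CPM in 2D. All 6 3D libraries thus lay at less than the lowest 2D library. The log2 fold change of 3D against 2D with palmitate was -1.47 ± 0.07 (SE, adjusted p = 3.19e-10), which is a level 2.77-fold higher in 2D. Its partners and antagonists were measured as a list of 13 genes, of which 11 passed the filter. MAX, with which MYC binds DNA, had a mean level of 74.9 CPM in 3D with palmitate and 82.1 CPM in 2D. Among the MXD proteins, repressors that pair with MAX in place of MYC, Mxd4 rose from 1.46 ± 0.11 to 12.1 ± 0.56 CPM (SD, n = 3; log2 fold change 3.04 ± 0.13 SE, adjusted p = 1.03e-10). Mxd1 rose from 4.53 ± 0.13 to 21.2 ± 1.3 CPM (SD, n = 3; log2 fold change 2.21 ± 0.10 SE, adjusted p = 1.03e-10). Both were also high in 3D without palmitate, at 14.7 ± 0.97 CPM for Mxd4 and 24.6 ± 1.1 CPM for Mxd1. Higher calls were also made for Mxd3 (0.68 ± 0.13) and Mga (0.28 ± 0.11), which were named after their values were seen. Mxi1, a further repressor of the family, fell by 0.58 on the log2 scale and Mycl, a MYC paralog, fell by 0.82, while Mycn was at 0 in all 9 libraries. In the list as a whole 4 of 11 genes were higher, close to the 34.5% of all genes, and 2 were lower, beside 33.9%. Its median was 0.05.

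The multifunctional nucleolar proteins held the most abundant transcripts. Npm1 (chr11:33152287-33163206) encodes nucleophosmin, a chaperone that shuttles ribosomal proteins and subunits. It was measured at 727, 799 and 926 CPM in 3D with palmitate, 807, 803 and 774 CPM in 3D without, and 2366, 2208 and 2369 CPM in 2D. Its log2 fold change of -1.50 ± 0.08 (SE, adjusted p = 5.88e-10) was the largest fall of the list. Ncl (chr1:86344719-86359400), which encodes nucleolin, an RNA-binding protein of ribosomal DNA transcription and early processing, stood at 1467, 1541 and 1810 CPM in 3D with palmitate. In 2D it stood at 3860, 3754 and 3895 CPM, a log2 fold change of -1.26 ± 0.07 (SE, adjusted p = 1.65e-09). For both genes replicate 3 was the highest of the 3D libraries with palmitate and still lay well below 2D. Gnl3, the GTPase nucleostemin, fell by 0.79 and Ddx21, a helicase that links RNA polymerase I transcription to processing, fell by 0.53 on the log2 scale. Together Ncl and Npm1 made up 36.8 to 40.6% of the list's summed CPM in the 6 3D libraries and 48.7 to 49.5% in 2D. Without them the sum was still lower in 3D with palmitate (3762 to 3999 CPM) than in 2D (6287 to 6402 CPM).

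All 8 genes of the snoRNA-guided modification complexes fell, beside 33.9% of all genes called lower. In the box H/ACA particles, which convert uridine to pseudouridine, the median log2 fold change of 5 genes was -1.08. Nop10, the smallest core protein, was at 24.7, 24.2 and 27.3 CPM in 3D with palmitate and at 57.4, 52.5 and 57.8 CPM in 2D (log2 fold change -1.15 ± 0.08 SE, adjusted p = 1.01e-08). Nolc1, a chaperone of these particles, had 214, 213 and 225 CPM in 3D with palmitate against 467, 483 and 477 CPM in 2D. The groups of Nop10 and Nolc1 were far apart relative to their spread, and Nolc1 had a log2 fold change of -1.13 ± 0.06 (SE, adjusted p = 5.56e-10). The core protein Nhp2 fell by 1.08, its partner Gar1 by 0.85 and Dkc1, the pseudouridine synthase itself, by 0.77. In the box C/D particles, which methylate ribose, the methyltransferase Fbl fell by 0.92, the scaffold proteins Nop56 by 0.96 and Nop58 by 0.75.

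Large subunit assembly was lower across all 12 genes, beside 33.9% of all genes called lower, with a median of -0.78. The 3 largest falls were those of Nop16 (-1.03 ± 0.08), Ppan (-1.02 ± 0.08) and Mrto4, all factors of early pre-60S particles. Mrto4, which holds the place of the stalk protein P0 on the precursor, had 40.4 to 43.8 CPM in 3D with palmitate and 80.9 to 89.4 CPM in 2D (adjusted p = 1.39e-08). The partners of the PeBoW complex, which processes the large subunit RNA, fell by similar amounts: Pes1 by 0.80, Wdr12 by 0.76 and Bop1 by 0.62 on the log2 scale. Wdr74 fell by 0.98, Ebna1bp2 by 0.94, the RNA methyltransferase Nop2 by 0.70 and Rrs1, which brings in the 5S particle, by 0.64. The helicase Ddx18 fell by 0.62 and Rrp1 by 0.54, the smallest fall of the 12. Ddx18 had very tight groups, 48.8 to 50.2 CPM in 3D with palmitate and 75.4 to 75.9 CPM in 2D.

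The small subunit genes moved less, and they held 2 of the 3 exceptions. Of 11 genes, 9 were called lower, beside 33.9% of all genes, and 1 higher, beside 34.5%. The remaining 1 was not called, and the median was -0.48. Rrp9, a protein of the U3 snoRNA particle, fell by 0.76 on the log2 scale. Ltv1 and Bysl, which act on late small subunit precursors, fell by 0.67 and 0.60. Nop14 fell by 0.61 and Wdr43 by 0.58, both parts of the processome that forms on the precursor RNA. The nuclease Nob1, which makes the last cut of the small subunit RNA, fell by 0.48 and the helicase Ddx10 by 0.44. Utp4, a processome protein, fell by 0.40 and Rrp12 by 0.36, the smallest called fall of the list (adjusted p = 0.000655).

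Tsr1, Polr1a and Utp20 were not lower in 3D. Tsr1, a late small subunit factor, was at 68.8, 76.8 and 88.7 CPM in 3D with palmitate and 59.5, 73.8 and 62.4 CPM in 2D. These groups overlap, and the call is near its threshold (log2 fold change 0.23 ± 0.10 SE, adjusted p = 0.0429), with an adjusted p up to 0.171 and a call in 11 of 20 alternatives. Tsr1 shares 1159 bp of exon with Srr on the opposite strand, and Srr was itself higher in 3D (0.40 ± 0.13 SE, adjusted p = 0.0107). Since the strand setting of the counting is not stated, reads of the pair may not be told apart. Polr1a, the largest subunit of RNA polymerase I, had 131, 140 and 143 CPM in 3D with palmitate and 121, 128 and 118 CPM in 2D. Its groups did not overlap, but the difference is small (0.17 ± 0.07 SE, adjusted p = 0.0444), with an adjusted p up to 0.141 and a call in 11 of 20 alternatives, 2 of these as lower. Utp20, a very long processome protein, had 161, 169 and 190 CPM in 3D with palmitate and 161, 175 and 150 CPM in 2D (0.09 ± 0.09 SE, adjusted p = 0.354). The other subunits of the polymerase fell, Polr1c by 0.91 and Polr1b by 0.49.

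Shorter transcripts tended to fall more. Across the 39 genes the 3D against 2D log2 fold change had a Spearman correlation of 0.61 with the length of the principal transcript, and of 0.30 across 12504 genes, all from the same libraries. Polr1a (9216 bp) and Utp20 (8821 bp) have the longest transcripts of the list. Ncl, the next longest as annotated (8202 bp), had one of the largest falls, but its coding length is only 2121 bp. The coding lengths of Polr1a and Utp20 are 5151 and 8367 bp. For Myc the transcript taken (1365 bp) holds little beyond its coding length of 1362 bp. The lengths are thus those of annotated transcripts, which may differ from the RNA present. When each library's dependence on GC content and length was fitted and taken out, Polr1a turned to -0.28 (adjusted p = 1.51e-05) and Utp20 to -0.31 (adjusted p = 1.25e-05). In that fit 38 of 39 genes were lower and Tsr1 alone was higher, and the median of the list was -0.66. Thus the direction of Polr1a and Utp20 depends on this choice, whereas the 36 falls were called in all 20 alternatives.

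**Figure D2:**
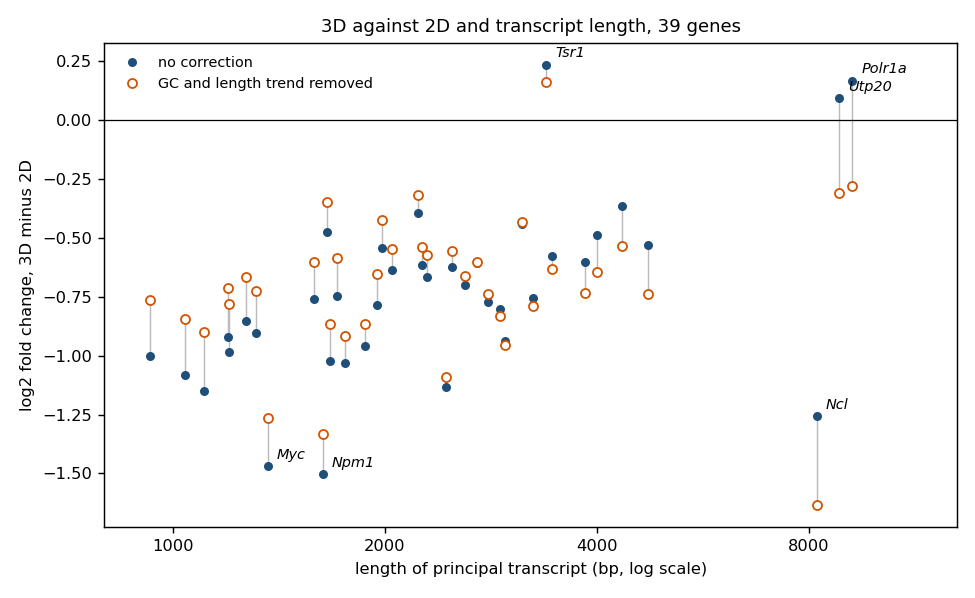
Log2 fold change of 3D against 2D culture, both with palmitate (vertical axis), against the length of the principal transcript in bp on a log scale (horizontal axis) for 39 genes, without correction (filled) and after removal of the GC and length trend (open), joined by a line for each gene. Polr1a and Utp20 cross 0, and Tsr1 stays above it.

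Levels of different genes were compared per kb of coding sequence. Counts may include reads outside it, so a short coding part in a longer transcript raises this value. The coding length was 459 bp of a 1042 bp transcript for Nhp2, 1332 of 1713 bp for Nop58 and 1362 of 1365 bp for Myc. The order of genes may thus differ per kb of transcript. In 2D the highest were Npm1 (2642 CPM per kb), Ncl (1809), Nhp2 (472), Nop58 (389) and Myc (338). The lowest in 2D were Polr1b (18.4 CPM per kb), Utp20 (19.4), Rrp12 (19.4) and Polr1a (23.8). In 3D with palmitate Npm1 (933 CPM per kb) and Ncl (757) were still first, followed by Nop58 (232) and Nhp2 (222), and Myc was at 122. The classes did not separate fully, since the polymerase subunit Polr1c (72.9 CPM per kb in 2D) and the snoRNA particle protein Fbl (83.9) lay in the middle of the list.

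A wider list of 146 further ribosome biogenesis genes, written from general knowledge of the pathway, gave 142 genes to test. It was chosen with earlier results of these data known, as were the other lists. Of these 116 were lower in 3D with palmitate than in 2D and 5 were higher, beside 33.9% and 34.5% of all genes tested. Their median log2 fold change was -0.51. Among polymerase I factors 6 of 11 were lower, among them Tcof1 (-1.44 ± 0.07), the treacle protein of ribosomal DNA transcription, and Polr1d (-0.92 ± 0.07). Among snoRNA particle genes 11 of 13 fell, with Ruvbl2 (-1.20 ± 0.07) and Rpap3 (-0.94 ± 0.08), which assemble these particles. The exosome and RNase MRP, which trim and cut the precursor, had 20 of 24 genes lower, with Exosc8 (-1.06 ± 0.07) and Exosc1 (-0.96 ± 0.06) having the smallest p. For large subunit assembly 38 of 46 were lower, with Rrp1b (-1.15 ± 0.07) and Noc2l (-0.99 ± 0.06) having the smallest p, and Urb2 (0.34 ± 0.08), Urb1 (0.26 ± 0.07) and Noc3l (0.24 ± 0.08) were higher. Noc3l was named after its value was seen, and Urb1 turned to -0.12 when the GC and length trend was removed. In the small subunit processome 41 of 48 were lower, Nol7 by 1.02 on the log2 scale. Wdr36 went against its complex, at 612, 617 and 621 CPM in 3D with palmitate and 286, 284 and 283 CPM in 2D (log2 fold change 1.12 ± 0.06 SE, adjusted p = 4.21e-10). Nol6 did likewise (0.94 ± 0.08 SE, adjusted p = 1.38e-07). Both are processome proteins, so opposite changes occurred within 1 complex.

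**Figure D3:**
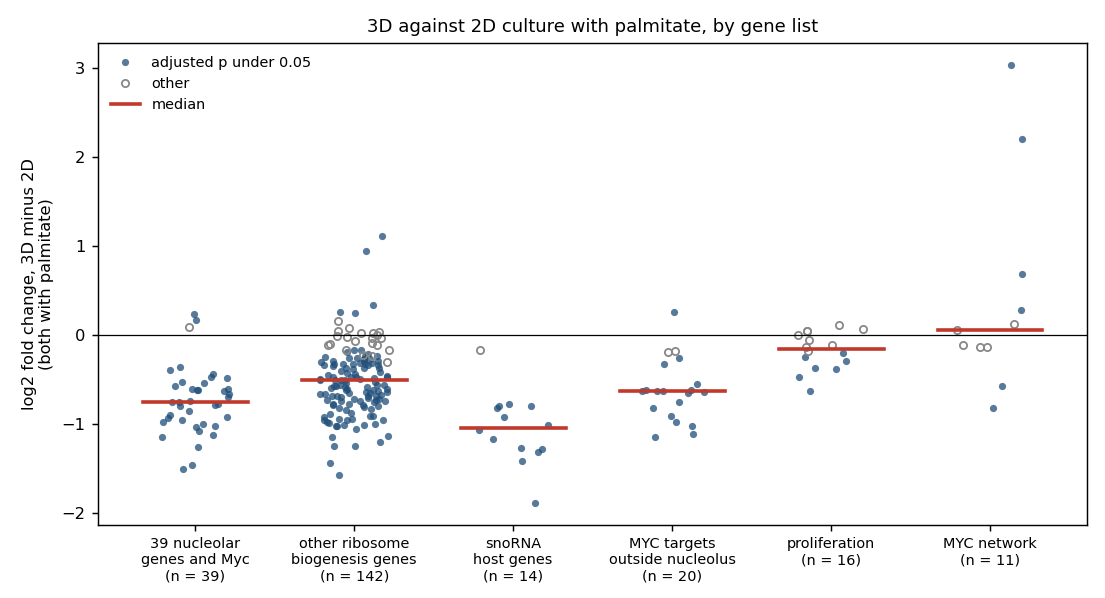
Log2 fold change of 3D against 2D culture, both with palmitate (vertical axis), for each tested gene of 6 lists (columns), filled where the adjusted p was under 0.05, with the median of each list as a bar. The medians are -0.76 for the 39 genes, -0.51 for other ribosome biogenesis genes and -1.04 for snoRNA host genes, while the MYC network spreads from -0.82 to 3.04.

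Host genes that carry snoRNAs in their introns fell as well. Of 16 such genes named for this role 14 were tested and 13 were lower, beside 33.9% of all genes tested, with a median of -1.04. Snhg8 (-1.32 ± 0.08) and Snhg1 (-1.17 ± 0.08) had the smallest p. Within the list of 39, 8 genes hold 23 snoRNA genes in the annotation, with 5 in Nop56, 4 in Nop58 and 3 each in Ncl, Gnl3 and Wdr43. Their median log2 fold change was -0.78, beside -0.70 for the other 31 genes. These snoRNAs themselves were not measured here, since the libraries were made from polyadenylated RNA.

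Known MYC targets outside the nucleolus were counted for comparison, as were proliferation genes. Of 20 such targets, 17 were lower in 3D, beside 33.9% of all genes, with a median of -0.63. Higher was 1, the transferrin receptor Tfrc (0.26 ± 0.08), beside 34.5% of all genes. Pa2g4, a growth regulator, fell by 1.11 and Ldha, the lactate dehydrogenase of glycolysis, fell by 0.98 on the log2 scale. Of 16 proliferation genes edgeR called 7 lower, beside 33.9% of all genes, and 0 higher, beside 34.5%, with a median of -0.16. At an unadjusted p under 0.05 there were 9 lower and 0 higher, and by DESeq2 8 and 0. In 9 of the 16 all 3 libraries of 3D with palmitate lay below all 3 of 2D, which held for 34.8% of all genes. Plk1, a mitotic kinase, fell by 0.63 and Cdk1 by 0.37. Markers of other cell types also differed between the culture forms. The summed level of 6 fibroblast markers was 93.4 to 111 CPM in 3D with palmitate and 33.2 to 34.6 CPM in 2D, nearly all from Pdgfra, with Lum at 0 in all libraries. Only 3 of the 6 passed the filter on low counts, of which 1 was higher and 2 were lower in 3D, so the sum does not speak for the set. For 6 leukocyte markers it was 8.58 to 11.4 CPM in 3D with palmitate and 24.4 to 27.8 CPM in 2D, mostly Cd68. Of 6 epithelial markers 3 were higher and 1 lower in 3D. The part of these in the result was not tested.

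The hexamer CACGTG, the E-box that MYC and MAX bind, was looked for in RefSeq promoter windows of GRCm38.p6 from 250 bases before to 50 after each start. It reads the same on both strands. A window was found for 33 of the 39 genes, and 7 held the motif (21.2%), beside 17.1% of 117 pathway genes, 11.8% of 9536 tested genes and 8.09% of all 27025 genes. In 6 of the 7 the match lay just after the start and in Nop2 before it, so that within the 250 bases before the start the share was 3.03%, beside 11.1% of the pathway genes and 6.86% of all genes. No window was found for Myc, Npm1, Fbl, Bop1, Rrp12 or Rrs1, and sequence outside the windows was not searched. The 7 matches within the windows are shown with up to 12 bases on each side, since they hold MYC's known motif, with the E-box in capitals.
Nop2, chr6:125131811-125131840, + strand: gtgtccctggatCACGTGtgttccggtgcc
Utp4, chr8:106893643-106893672, + strand: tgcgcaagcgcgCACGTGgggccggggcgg
Ltv1, chr10:13193092-13193121, - strand: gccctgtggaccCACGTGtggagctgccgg
Utp20, chr10:88826765-88826789, - strand: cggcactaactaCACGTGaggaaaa
Pes1, chr11:3963965-3963994, + strand: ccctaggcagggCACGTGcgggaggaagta
Tsr1, chr11:74898092-74898121, + strand: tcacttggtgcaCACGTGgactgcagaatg
Wdr43, chr17:71616220-71616249, + strand: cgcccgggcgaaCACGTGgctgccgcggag
Genes with the motif had a median 3D against 2D log2 fold change of -0.58 (from -0.80 to 0.23), and the 26 genes with a window but no motif had -0.78. Of the 3 genes that were not lower in 3D, Tsr1 and Utp20 carry it. A match is a sequence only, and binding was not measured here.

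Palmitate in 3D culture moved the same genes far less. This comparison shares the 3D libraries with palmitate with the one above, so the values are given side by side and not as independent results. By edgeR's test with Benjamini-Hochberg adjustment, 5 of 39 genes were higher with palmitate, beside 1.38% of all genes tested, and 0 were lower, beside 0.811%. At an unadjusted p under 0.05 there were 19 higher and 0 lower, beside 10.3% and 6.99% of all genes. DESeq2 called 6 higher and 0 lower, beside 1.92% and 1.25%. The median log2 fold change was 0.13, against 0.01 for all genes. All 39 values were above 0, from 0.01 to 0.39, where 52.2% of all genes were, but 2 turned negative with scaling by library size only and 9 when replicate 3 was left out. In 19 of the 39 all 3 libraries with palmitate lay above all 3 without, which held for 10.4% of all genes.

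The 5 called genes act on both subunits. Rrp9, the U3 particle protein, was at 54.5, 46.5 and 42.1 CPM with palmitate and 37.5, 38.0 and 35.7 CPM without (log2 fold change 0.39 ± 0.09 SE, adjusted p = 0.0339). Bysl, needed for late small subunit processing, was at 52.2, 49.7 and 41.8 CPM with and 37.4, 39.4 and 38.2 CPM without (0.34 ± 0.08 SE, adjusted p = 0.0359). In both genes replicate 3 was the lowest of the libraries with palmitate and still lay above all 3 without. Ppan, an early large subunit factor, had 97.8, 92.1 and 82.1 CPM with and 75.4, 74.0 and 68.0 CPM without (0.33 ± 0.08 SE, adjusted p = 0.0416). Rrs1, of the 5S particle, had 83.8, 77.9 and 83.3 CPM with and 68.6, 70.9 and 65.8 CPM without (0.26 ± 0.06 SE, adjusted p = 0.0478). Utp4 had the tightest groups of the 5, with 99.8 to 104 CPM with palmitate and 84.4 to 88.4 CPM without (0.25 ± 0.06 SE, adjusted p = 0.0416). All 5 genes were higher in 2D than in either 3D condition. Bysl shares 361 bp of exon with Ccnd3 on the opposite strand, whose difference with palmitate was 0.27 ± 0.10 (SE, adjusted p = 0.186). Myc itself was at 182, 157 and 159 CPM with and 155, 149 and 142 CPM without, groups that do not overlap, and was not called (0.17 ± 0.07 SE, adjusted p = 0.25), nor was it without replicate 3 (0.20 ± 0.07 SE, adjusted p = 0.0617).

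**Figure D4:**
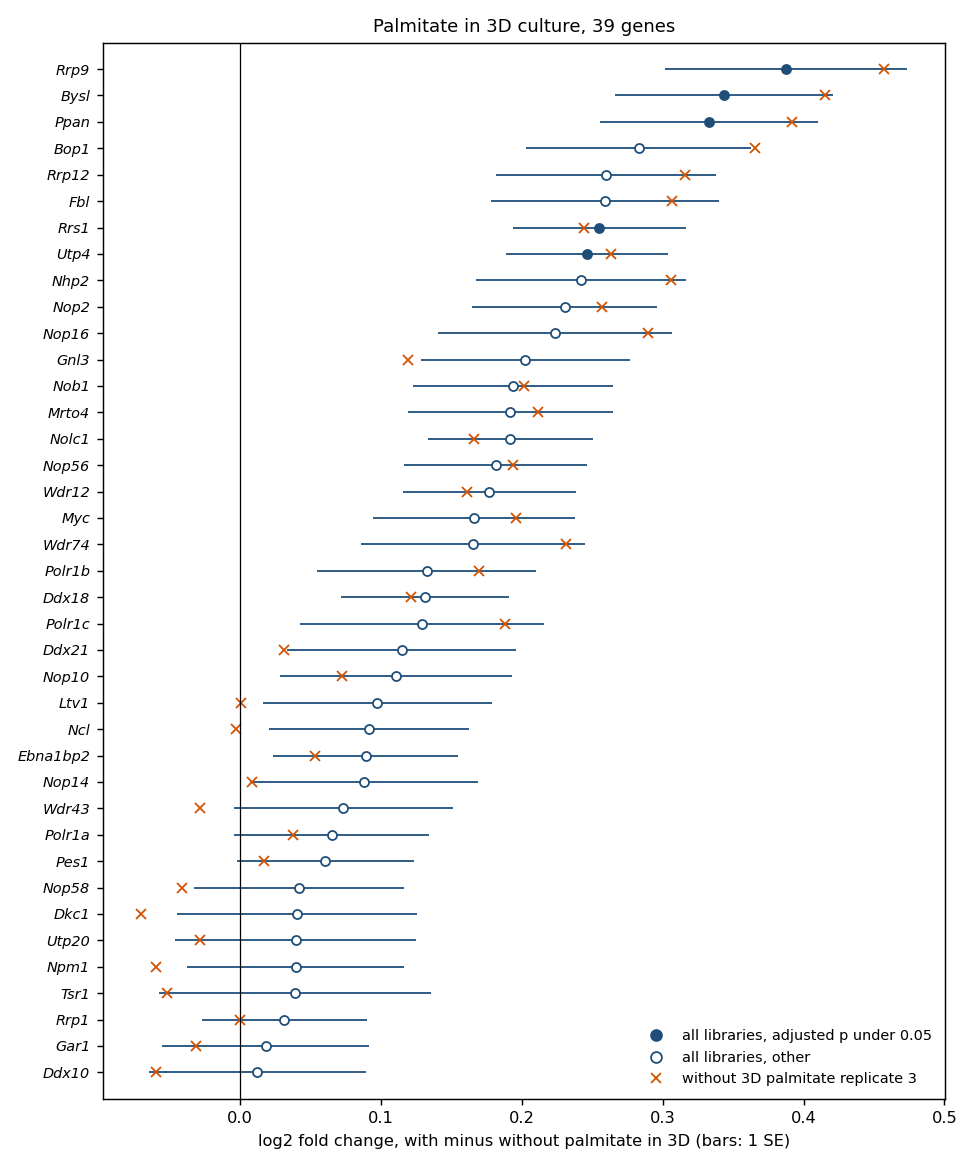
Log2 fold change of 3D culture with against without palmitate (horizontal axis) for 39 genes in order of size, with 1 SE as bars and filled where the adjusted p was under 0.05, and the value without 3D palmitate replicate 3 as a cross. All 39 circles lie above 0, and 9 crosses lie below it.

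These calls were close to the threshold and moved with the processing. None of the 5 remained called with scaling by library size only, with the replicate number as a block, with the 2 groups alone or with the Rn45s share as covariate. Their log2 fold changes in these 4 fits stayed near those above, at 0.36 to 0.39 for Rrp9, 0.29 to 0.33 for Bysl, 0.31 to 0.33 for Ppan, 0.22 to 0.25 for Utp4 and 0.23 to 0.29 for Rrs1. Without replicate 3, 13 genes were called higher and 0 lower, beside 8.56% and 6.3% of all genes in that fit. They included the 5, with Rrp9 at 0.46 ± 0.08, Bysl at 0.42 ± 0.06, Ppan at 0.39 ± 0.07, Utp4 at 0.26 ± 0.06 and Rrs1 at 0.24 ± 0.06. Bop1 (0.37 ± 0.06), Rrp12 (0.32 ± 0.07), Nhp2 (0.31 ± 0.06) and Fbl (0.31 ± 0.08) were among those added. In the same fit Dkc1 (-0.07), Npm1 (-0.06), Ddx10 (-0.06) and Tsr1 (-0.05) turned negative. Leaving out any other library left 0 to 2 genes called, the 2 being Rrp9 and Ppan without 2D replicate 3. When the GC and length trend was removed 12 genes were higher, beside 5.01% of all genes.

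Replicate 3 split the list by base composition. Among the 19 genes with a GC content below the list's median of 50.8%, it was the highest of the 3 libraries with palmitate in 17. Among the 20 at or above the median it was the lowest in 13. The median difference from replicate 1 was 0.28 in the first set and -0.24 in the second, on the scale of log2(CPM + 0.5). The palmitate log2 fold change had a median of 0.09 in the first set and 0.21 in the second, and its Spearman correlation with GC content was 0.58 across the 39 genes and 0.23 across 12504 genes. For 3D against 2D the medians were -0.75 and -0.81, and the correlation with GC content was -0.10. The part of base composition in the palmitate calls was not tested beyond the fits with the trend removed.

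**Figure D5:**
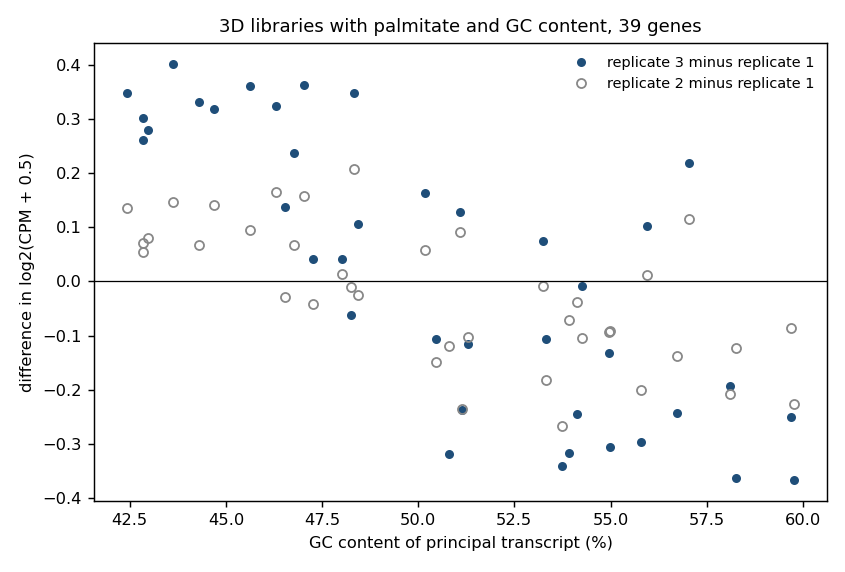
Difference in log2(CPM + 0.5) between 3D libraries with palmitate (vertical axis) against transcript GC content in percent (horizontal axis) for 39 genes, for replicate 3 minus replicate 1 (filled) and replicate 2 minus replicate 1 (open). Both sets slope down, with Spearman correlations of -0.79 and -0.66.

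In the wider pathway list edgeR called 3 of 142 genes higher with palmitate, beside 1.38% of all genes, and 0 lower, beside 0.811%. At an unadjusted p under 0.05 there were 37 higher and 1 lower, beside 10.3% and 6.99% of all genes. DESeq2 called 6 higher and 0 lower, beside 1.92% and 1.25%. Without replicate 3, edgeR called 27 higher and 3 lower, beside 8.56% and 6.3%. The 3 genes called higher with all libraries act on the small subunit. Pno1, a partner of Nob1, went from 64.7 ± 0.61 to 80.9 ± 2.0 CPM (SD, n = 3; log2 fold change 0.32 ± 0.06 SE, adjusted p = 0.0146). Nol10 rose by 0.32 ± 0.07 (SE, adjusted p = 0.025) and Nop9 by 0.29 ± 0.06 (SE, adjusted p = 0.0273), the latter named after its value was seen. Without replicate 3 the values were 0.32 for Pno1, 0.28 for Nol10 and 0.31 for Nop9, all called. Among snoRNA host genes 1 of 14 was higher, beside 1.38% of all genes. It was Snhg16, at 15.3, 14.1 and 10.9 CPM with and 9.73, 10.5 and 8.95 CPM without palmitate (0.52 ± 0.12 SE, adjusted p = 0.0354). Without replicate 3 its value was 0.61 ± 0.10. Among the MYC targets outside the nucleolus edgeR called 0 of 20, and the median was 0.17. At an unadjusted p under 0.05, 9 of these were higher, beside 10.3% of all genes, and by DESeq2 2, beside 1.92%. Without replicate 3, edgeR called 11 of the 20 higher, beside 8.56% of all genes, with a median of 0.20. Among proliferation genes edgeR called 0 of 16, and the median was 0.10. At an unadjusted p under 0.05, 5 of these were higher, beside 10.3% of all genes, and by DESeq2 1, beside 1.92%. Without replicate 3, edgeR called 3 higher and 1 lower, beside 8.56% and 6.3%. In the MYC network 0 of 11 were called by edgeR or DESeq2, with a median of 0.02. At an unadjusted p under 0.05, 1 was higher and 3 were lower, beside 10.3% and 6.99% of all genes. Without replicate 3, edgeR called 2 of the 11 lower, beside 6.3% of all genes. These were Mxd1 and Mga, both named here after their values were seen. Mxd4 (-0.30 ± 0.10, adjusted p = 0.132) and Mxd1 (-0.22 ± 0.08, adjusted p = 0.178) did not pass the test with all libraries.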

How the data were processed

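The authors extracted RNA with TRIzol, made KAPA stranded mRNA libraries and sequenced 50 bp single-end reads, which they cleaned with fastq-mcf, inspected with FastQC 0.11.9, aligned to GRCm38 with HISAT2 2.1.0 and counted per gene with HTSeq. They deposited raw counts. Annotation release and strand setting are not given in the sources used here, and reads shared with paralogs or pseudogenes may have been lost. All 9 columns were used, and every row names a gene.

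Groups came from the sample labels. edgeR 4.0.16 (R 4.3.3) was run on the counts with filterByExpr, TMM and a quasi-likelihood test of condition over all 9 libraries, with Benjamini-Hochberg adjustment over all genes tested (called under 0.05). SE is the log2 fold change over the square root of F. Levels are TMM-scaled CPM. The fits were tested on simulated data. The smallest exact two-sided permutation p for 3 against 3 libraries is 0.1. GENCODE vM21 gave coordinates, principal transcripts and overlaps. Of the 39 genes, 38 matched by symbol and Utp4 by a synonym.

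The genes and lists were chosen with earlier results of these data known. All 39 genes are named. From other lists the text names, per role, the 2 genes with the smallest p in 3D against 2D, up to 2 called against most of their role, and up to 2 called with palmitate. Alternatives were RLE scaling, library size only, no filter, at least 10 counts, the 2 groups alone, a replicate block, DESeq2 1.42.0, GC and length trend removal (splines with 4 degrees of freedom), the Rn45s share as covariate, Rn45s left out, and each library left out. Removing the trend together with 3D palmitate replicate 3 was chosen after seeing the data. Same-numbered libraries of different conditions did not deviate together.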

Additional observations from a re-analysis of the deposited data

How the results depend on the processing

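Against 2D, 36 genes stayed lower in all alternatives, and 38 were lower once the trend with GC content and length was taken out. The median log2 fold change moved from -0.76 to -0.66 with the trend removed and -0.69 with 3D palmitate replicate 3 also left out, an alternative chosen after seeing the data. Leaving out 1 library gave -0.78 to -0.71. Higher calls went from 2 to 1 with library size only, no filter, the 2 groups alone, the trend removed or the Rn45s covariate, to 0 with trend and library removed, and to 0 to 2 without 1 library. Under trend removal, first with and then without that library, Polr1a was -0.28 and -0.28, Utp20 -0.31 and -0.31, and Urb1 -0.12 and -0.13.

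With palmitate, higher calls went from 5 to 0 with library size only, the 2 groups alone, the replicate block or the Rn45s covariate, 3 with at least 10 counts, 12 with the trend removed, 13 with trend and library removed, and 0 to 13 without 1 library. For the pathway list the 3 higher calls became 7 with no filter, 0 with the 2 groups alone, 1 with the replicate block, 6 with DESeq2, 20 with the trend removed, 0 with the Rn45s covariate, 35 with trend and library removed, and 0 to 27 without 1 library. Lower calls were 2 with trend and library removed and 0 to 3 without 1 library. The median of the 39 genes was 0.12 to 0.17 without 1 library. The cause of these shifts was not tested.

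Small values changed sign. Gar1 was -0.0056 with library size only, -0.0023 with no filter, -0.044 with the trend removed and -0.15 with trend and library removed. Ddx10 was -0.011 and -0.0086 with library size only and no filter. Tsr1 was -0.0079 with trend and library removed, and Rrp1 was -0.0060 with the trend removed and -0.088 with both. Without 1 library the ranges were -0.00055 to 0.19 for Polr1c, -0.041 to 0.10 for Nop58, -0.070 to 0.13 for Dkc1, -0.032 to 0.077 for Gar1, -0.0030 to 0.15 for Ncl, -0.060 to 0.12 for Npm1, -0.028 to 0.12 for Utp20, -0.029 to 0.14 for Wdr43, -0.060 to 0.065 for Ddx10 and -0.052 to 0.13 for Tsr1.

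Replicate numbers are shared between conditions. Over all genes the correlation of same-numbered deviations was -0.38 to 0.22 (9 pairs), beside -0.29 to 0.41 for the 18 other pairs. The numbers were not treated as pairs in the main fit. Such correlations cannot settle whether same-numbered libraries were handled together, and the labels do not say. The block left the counts against 2D at 36 lower and 2 higher. The smallest library limits genes with few counts.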
